A study of Mus musculus with 12 samples.

Results

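The 10 genes followed here are the granule genes of neutrophils, the phagocytes that carry their enzymes and antimicrobial proteins ready made in granules: Elane, Mpo, Prtn3, Ctsg, Camp, Ngp, Ltf, Retnlg, S100a8 and S100a9. They were taken by symbol from the 28694 gene rows of the 4 gene expression libraries, and each of the 10 had at least 1 UMI (unique molecular identifier, 1 counted RNA molecule) in each library. Their order was followed in the 546 of 20725 kept cells that held at least 20 UMIs of S100a8 and S100a9 together, called the S100a8/S100a9 gate below. Meningeal leukocytes, the immune cells of the membranes that cover the brain, were profiled by droplet single-cell RNA sequencing with a 5′ kit. The HI group was C57Bl/6j pups at postnatal day 4, 6 h after hypoxia-ischemia, a model of birth asphyxia (HI 1 and HI 2), and the naive group was C57Bl/6j pups at postnatal day 4 with no insult (naive 1 and naive 2). Each library pooled 12 pups, 6 male and 6 female, so the spread between 2 libraries of a group is a spread between pools. No group with sham surgery was analysed here, and surgery and hypoxia-ischemia cannot be told apart.

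Neutrophils make their granules in sequence as they mature in the marrow. Primary, or azurophil, granules are filled at the promyelocyte stage with serine proteases and myeloperoxidase, secondary, or specific, granules at the myelocyte and metamyelocyte stages with cathelicidin and lactoferrin, and later granules and cytosolic proteins follow in band and segmented cells. The genes are switched off again after their stage, so a blood neutrophil carries proteins whose mRNA it no longer holds. Elane encodes neutrophil elastase, Prtn3 proteinase 3 and Ctsg cathepsin G, all serine proteases of primary granules, and Mpo encodes myeloperoxidase, which makes hypochlorous acid. Camp encodes the cathelicidin precursor, Ngp neutrophilic granule protein and Ltf lactoferrin, which binds iron. Retnlg encodes resistin-like gamma, a transcript of late neutrophils in mice, and S100a8 and S100a9 encode the subunits of calprotectin, which binds zinc, manganese and calcium.

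Sequence upstream of the 4 primary genes is shown because their mRNA was found in the same few cells. That of S100a8 and S100a9 is shown because monocyte-like cells below the gate held the first nearly without the second. Each line gives the 250 bases before the annotated start in RefSeq (GRCm38.p6), 5′ to 3′ on the gene's strand, with matches to AGGAAGT, a core bound by the myeloid ETS factor PU.1, in capitals on either strand (ACTTCCT where it lies on the other strand).
Elane, chr10:79886062-79886311, plus strand: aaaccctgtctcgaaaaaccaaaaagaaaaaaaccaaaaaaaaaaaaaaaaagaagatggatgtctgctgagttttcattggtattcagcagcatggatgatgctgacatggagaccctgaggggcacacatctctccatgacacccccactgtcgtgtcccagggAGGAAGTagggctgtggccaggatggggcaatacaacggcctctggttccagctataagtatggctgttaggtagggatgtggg
Prtn3, chr10:79879417-79879666, plus strand: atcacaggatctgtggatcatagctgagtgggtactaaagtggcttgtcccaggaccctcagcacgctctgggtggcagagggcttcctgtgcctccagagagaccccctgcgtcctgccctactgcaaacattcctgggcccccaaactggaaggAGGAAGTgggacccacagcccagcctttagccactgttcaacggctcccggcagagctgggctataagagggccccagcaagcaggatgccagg
Mpo, chr11:87793534-87793783, plus strand: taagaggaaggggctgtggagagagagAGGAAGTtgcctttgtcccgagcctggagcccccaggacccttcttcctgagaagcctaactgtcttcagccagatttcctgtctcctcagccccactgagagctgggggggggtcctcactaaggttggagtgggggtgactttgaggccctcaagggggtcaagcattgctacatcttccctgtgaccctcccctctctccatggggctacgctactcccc
Ctsg, chr14:56102575-56102824, minus strand: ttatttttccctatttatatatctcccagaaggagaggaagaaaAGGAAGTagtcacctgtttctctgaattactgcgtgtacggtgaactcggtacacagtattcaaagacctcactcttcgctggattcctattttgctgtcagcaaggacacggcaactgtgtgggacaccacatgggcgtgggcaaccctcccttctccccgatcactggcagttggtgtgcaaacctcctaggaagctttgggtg
S100a8, chr3:90668821-90669070, plus strand: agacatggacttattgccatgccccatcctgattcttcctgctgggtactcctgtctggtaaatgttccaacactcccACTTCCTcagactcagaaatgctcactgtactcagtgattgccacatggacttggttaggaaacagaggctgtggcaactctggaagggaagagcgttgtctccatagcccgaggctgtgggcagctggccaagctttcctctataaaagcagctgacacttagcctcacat
S100a9, chr3:90695722-90695971, minus strand: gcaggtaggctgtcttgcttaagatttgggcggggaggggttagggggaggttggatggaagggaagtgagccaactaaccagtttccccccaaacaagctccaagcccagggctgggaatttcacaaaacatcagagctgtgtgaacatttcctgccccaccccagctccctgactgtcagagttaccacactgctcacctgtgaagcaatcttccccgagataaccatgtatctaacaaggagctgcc
The motif was chosen after the sequences were seen. It lay in all 4 primary windows, beginning 84 bases before the start of Elane, 94 before Prtn3, 223 before Mpo and 206 before Ctsg, in S100a8 on the other strand at 172, and in none of Camp, Ngp, Ltf, Retnlg and S100a9. Of 32851 such windows in the table, 7.69% held it. TATAA on either strand was in 22.8% of windows and began 31, 32 and 30 bases before the starts of Elane, Prtn3 and S100a8, 57 before Retnlg, and 236 before Ctsg on the other strand. TTGCNNAA, a C/EBP-type motif, was in 9.56% of windows and in those of Ngp, Ltf, Retnlg and S100a9. No 2 matches in these windows overlapped, and no binding was measured. Prtn3 and Elane are neighbours, 3137 bases apart, and S100a8 and S100a9 lie 22595 bases apart.

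The libraries held 4070 (HI 1), 6081 (HI 2), 4912 (naive 1) and 5662 (naive 2) kept cells, with median depths of 9574 to 11091 UMIs. The lowest barcode past the gene and mitochondrial filters had 3263 to 3633 UMIs per library, so no cell with less RNA was used. Cells late on the maturation axis below had median depths of only 4198 to 6573 UMIs. Between 29 and 54 barcodes were shared by each pair of libraries. HI 1 and HI 2 stood apart from each other in maturity: 76 of the 178 cells of HI 1 with at least 20 S100a9 UMIs fell in the earliest bin of that axis, against 7 of 124 in HI 2, 7 of 40 in naive 1 and 23 of 77 in naive 2. The pools were handled in 2 runs, with 1 HI and 1 naive library in each, per the series' design text, and the labels do not say which libraries shared a run.

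S100a9 split the gate into 2 sets of cells: 414 of the 546 cells had 40 or more S100a9 UMIs, 5 had 20 to 39, and 127 had fewer than 20, of which 89 had none (the split was made after the values were seen). In the 419 cells with at least 20, S100a9 made up 52.1% of the S100a8 and S100a9 UMIs, between 51.3% and 53.7% in the 4 libraries, and the median cell held 8 of 10 neutrophil markers (over the 418 that also had 20 S100a8 UMIs). Cxcr2, the chemokine receptor of mature neutrophils, was found in 87.1% and 93.5% of these cells in HI 1 and HI 2 and in 75.0% and 77.9% in naive 1 and naive 2, and Ly6g, the surface antigen used to sort neutrophils, in 58.4% and 38.7% of HI cells and 40% and 37.7% of naive cells. Neutrophil markers led in 344 of those 418 cells and monocyte markers in 21, and the rest had another leading list or none. The other 127 gate cells were 20 and 66 in HI 1 and HI 2 and 12 and 29 in naive 1 and naive 2. They held 9736 S100a8 UMIs against 231 of S100a9, a median of 2 of 10 neutrophil markers and no Ly6g, and monocyte markers led in 94 of them. Their summed Camp and Ngp counts were 0, with 1 Ltf and 2 Retnlg UMIs. The granule order below therefore uses the 419 cells, and gate-wide values are given beside them. This cut also took primary mRNA out of HI 2. The gate of HI 2 held 496 Elane, 492 Mpo, 171 Ctsg and 588 Prtn3 UMIs. Its cells with at least 20 S100a9 UMIs held 0, 0, 0 and 12.

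Around the threshold, 79 cells had 10 to 19 UMIs of the pair, with 1102 UMIs of S100a8 and 8 of S100a9, and 37 cells had 20 to 29, with 883 and 12. Monocyte markers led in 62 of the 79 and in 29 of the 37. Of the 546 gate cells, 415 had 300 or more UMIs of the pair. S100a8 and S100a9 chose these cells, so their levels inside the gate are descriptions and were not tested.

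**Figure D1:**
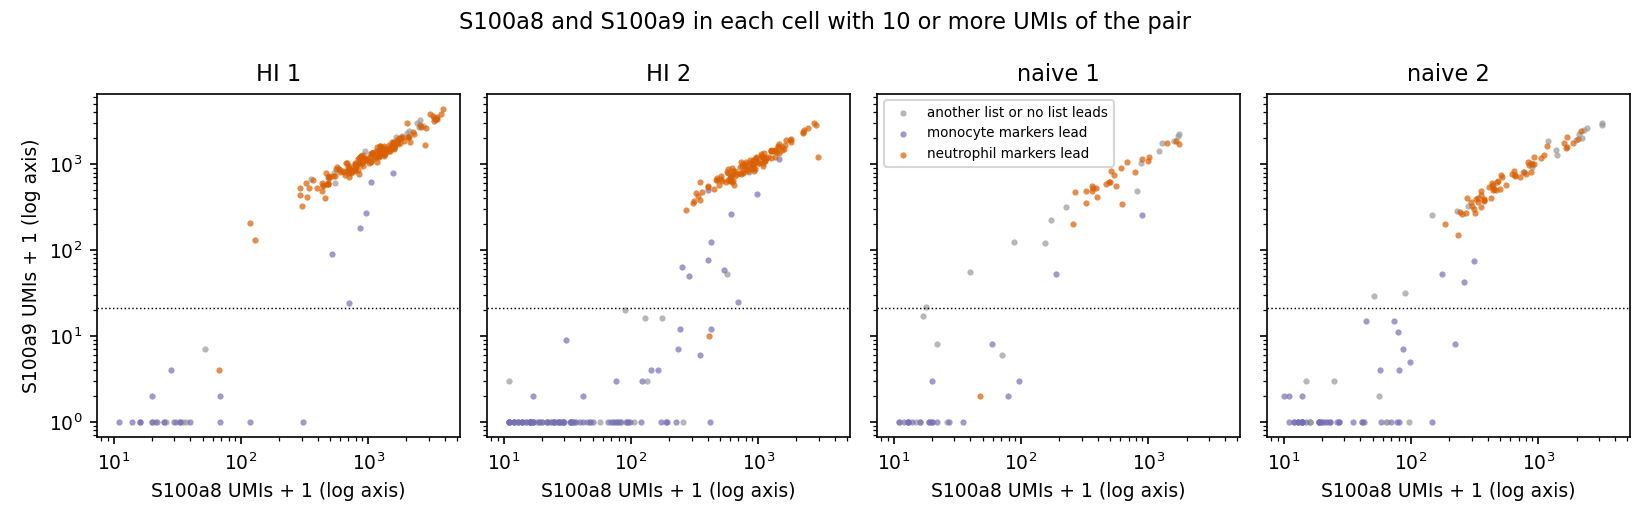
UMIs of S100a9 against UMIs of S100a8 (both plus 1, log axes) in every kept cell with 10 or more of the pair, 1 panel per library, coloured by the marker list that led. The dotted line marks 20 S100a9 UMIs. A compact arm near equal counts holds the cells in which neutrophil markers led, and a flat row at the bottom holds cells with S100a8 and almost no S100a9, most with monocyte markers.

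Primary granule mRNA was concentrated in a handful of cells. Of 20725 kept cells, 13 had 20 or more UMIs of the 4 primary genes together, 8 in the gate and 5 below it. They held 98.9% of all Elane UMIs, 99.3% of Mpo, 91.1% of Ctsg and 77.5% of Prtn3. In HI 1, where the gene counts were lowest, 3 such cells held 5 of 15 Elane UMIs, 39 of 42 Mpo, 6 of 19 Ctsg and 70 of 335 Prtn3. In the gate, 3 and 2 cells of HI 1 and HI 2 and 2 and 3 cells of naive 1 and naive 2 reached at least 3 primary UMIs out of 3000 randomly drawn from the cell.

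From cell to cell, the proportions of the 4 primary genes differed. The richest cell, of naive 1, had 690 Elane, 857 Mpo, 547 Prtn3 and 200 Ctsg UMIs and 9 of Camp. A second cell of that library had 289, 201, 227 and 9 UMIs of the same genes, with 893 Camp, 525 Ngp and 3 Ltf. A cell of naive 2 had 167 Elane, 11 Mpo, 197 Prtn3 and 4 Ctsg, with 383 Camp, 268 Ngp and 1 Ltf. Another cell of naive 2 had 31 Elane and 31 Prtn3, no Mpo or Ctsg, and 1099 Camp, 540 Ngp and 63 Ltf UMIs. In 2 further cells Prtn3 was nearly the only primary gene: 1 of HI 1 had 22 Prtn3 and 1 Elane with 939 Camp, 688 Ngp and 114 Ltf, and 1 of naive 2 had 21 Prtn3 with 2102 Camp, 1859 Ngp and 214 Ltf. Retnlg was at 0 or 1 UMI in all 13. In the 5 of these cells with at least 383 Camp UMIs (a bound chosen after the values were seen), Ctsg was at 9 UMIs or fewer, Mpo was at 201 in 1 cell and at most 11 in the other 4, Elane was found in 4 and Prtn3 in all 5. These 5 cells came from naive 1, naive 2 and HI 1 and none from HI 2, and no test was made of an order. The 13 cells were deep, with 21025 to 50378 UMIs each, and their markers named 4 of them classical monocyte-like and the other 9 no single type. The list of granulocyte-monocyte progenitor markers was not among the 11 lists that could name a type. The 13 cells held 1 to 5 of its 5 markers. A cell of naive 1 and a cell of naive 2 that were named classical monocyte-like had 4 progenitor and 4 classical monocyte markers each. Whether any was a doublet that the removal had missed was not tested.

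The other cells with primary mRNA held almost no secondary gene. In HI 2 the richest gate cell had 493 Elane, 492 Mpo, 544 Prtn3 and 171 Ctsg UMIs with 89 S100a8, 19 S100a9 and no secondary gene, and 5 of 5 granulocyte-monocyte progenitor markers. A cell of HI 1 with 28 Prtn3 and 4 Elane UMIs had all 5 classical monocyte markers and 1 Camp UMI. The 5 cells below the gate had at most 1 UMI of S100a8 and none of S100a9. Among them a cell of HI 2 had 223 Elane, 476 Mpo, 261 Prtn3 and 158 Ctsg UMIs, and 1 of naive 1 had 15, 387, 193 and 101. Mpo exceeded Elane in these 5, which held 1 to 4 of the 5 classical monocyte markers and 2 to 4 of the progenitor markers.

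The secondary genes, on chromosome 9 (Camp chr9:109847377-109849456, Ngp chr9:110419808-110423012, Ltf chr9:111019292-111042766), were found together. After drawing 3000 UMIs from each cell, 259 of the 419 cells had Camp, 279 Ngp and 224 Ltf, and 216 had all 3. Across the 419 cells, which came from different libraries and differed in depth, the Pearson correlation of log2 levels centred per library was 0.95 for Camp with Ngp and 0.94 for Camp with Ltf. It was 0.94 for Mpo with Ctsg and 0.87 for Elane with Mpo, against 0.07 for Elane with Camp. Mpo had a UMI in only 2.25% and 0% of these cells in HI 1 and HI 2 and 5.0% and 1.30% in naive 1 and naive 2. Ctsg had a UMI in 0.562% and 0% in HI and 5.0% and 1.30% in naive. The values for these genes thus rest on a few cells and on shared zeros. Camp with Retnlg gave -0.28. These are descriptions across cells, with no test.

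The amounts per cell differed widely between libraries. Camp had a median of 174.5 and 4 UMIs per cell in HI 1 and HI 2 and 8 and 0 in naive 1 and naive 2. Ngp had 259.5 and 10.5 in HI and 5.5 and 2 in naive, and Ltf 65.5 and 0 in HI and 0.5 and 0 in naive. HI 1 was far above the other 3 libraries, and HI 2 lay near the naive ones. Retnlg (chr16:48872608-48874498) was ordered otherwise: its median cell held 28 UMIs in HI 1 and 111.5 in HI 2, and 17 in each naive library.

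The 10 genes were followed along a maturation axis that used none of them. It set late UMIs (Cxcr2, Csf3r, Msrb1, Mxd1, Clec4d, Il1r2 and Mmp9) over the sum of late and early UMIs (Cebpe, Fcnb, Chil3, Cd63, Mki67, Top2a, Stmn1 and Hmgn2) and cut it into 4 bins of equal width, with 113, 40, 61 and 205 cells from early to late. Chil3 and Fcnb are themselves counted below as secondary and tertiary granule genes. Across these cells Chil3 correlated at 0.81 with the secondary sum and Mmp9 at 0.71 with Retnlg. The fall of the secondary genes and the climb of Retnlg along the axis are therefore partly built in. Over all libraries, Camp had 400.3, 210, 77.8 and 10.6 UMIs per 10000 from the first to the last bin. Ngp had 448, 309, 169 and 26.6. Ltf had 98.5, 102, 58.6 and 6.48, so it was level into the second bin (lower there in naive 1), where Camp was already lower in all 4 libraries. Retnlg ran the other way with 6.88, 47.7, 125 and 182. The primary sum was 18.9 in the first bin and at most 0.223 in the later ones. S100a8 (989, 963, 923 and 1026) and S100a9 (1067, 955, 986 and 1179) were close to level along the axis.

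The same order was seen within libraries, with exceptions. From the first to the last bin Camp had 403, 209, 64.3 and 8.26 UMIs per 10000 in HI 1 and 328, 183, 87.3 and 9.62 in HI 2, and 333, 184, 93.3 and 8.96 in naive 1 and 436, 315, 30.4 and 18.5 in naive 2. Retnlg had 8.61, 48.4, 112 and 181 in HI 1 and 6.15, 57.2, 172 and 195 in HI 2, and 0.493, 48.8, 28.6 and 157 in naive 1 and 3.51, 20.8, 205 and 166 in naive 2. Retnlg was thus lower in the third bin than the second in naive 1 (10 cells against 4), and lower in the last than the third in naive 2 (42 cells against 6). The primary sum of the first bin was 1.53 in HI 1 and 0 in HI 2 (7 cells), and 186 in naive 1, where 2 of the richest cells lay, and 13.4 in naive 2. The gate cell of HI 2 richest in primary mRNA had 19 S100a9 UMIs and was not placed on the axis.

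**Figure D2:**
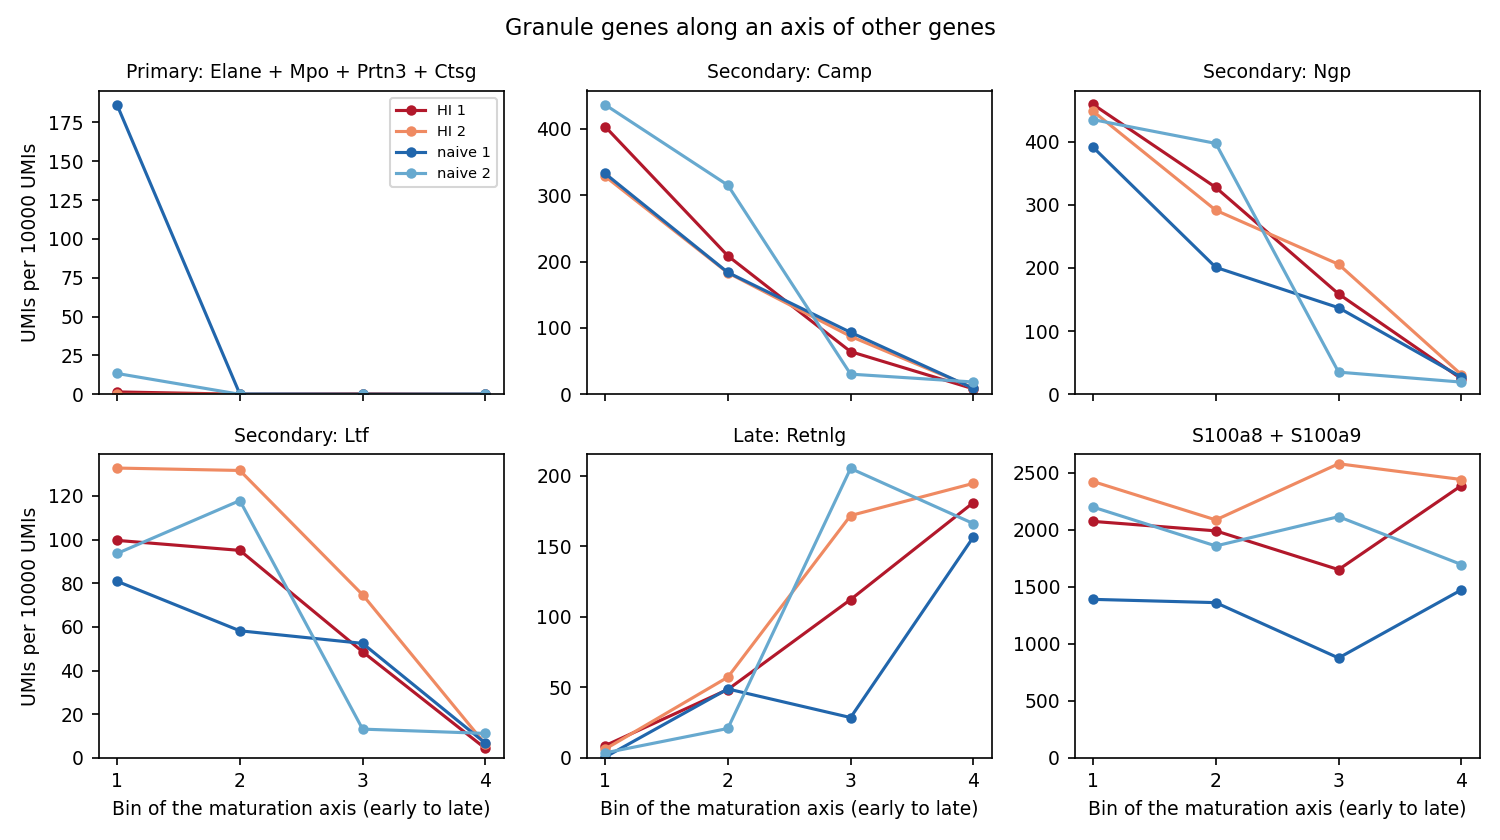
UMIs per 10000 UMIs of each granule gene or sum (y axis, linear from 0) in 4 bins of a maturation axis built from other genes (x axis, early to late), 1 line per library. Camp, Ngp and Ltf fall, Retnlg climbs, and S100a8 plus S100a9 stay level; bins with under 20 cells, down to 4 in naive 1, carry little weight.

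By stage, few of the 419 cells held primary mRNA. Counting a stage as reached at 3 of 3000 drawn UMIs, 83 of the 419 cells reached the secondary sum alone, 169 the secondary sum and Retnlg, and 119 Retnlg alone. Primary mRNA was reached by 1 cell alone, by 6 with the secondary sum, by 1 with both other stages and by none with Retnlg only, and 40 cells reached no stage. Depth changed with stage: the median cell had 14586 UMIs with the secondary sum alone, 7845 with both and 4640 with Retnlg alone. In HI 1, 55, 71 and 37 cells were secondary alone, both, and late alone, against 4, 68 and 40 in HI 2, 6, 13 and 11 in naive 1 and 18, 17 and 31 in naive 2. Secondary-only cells thus made up most of the difference between HI 1 and HI 2.

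**Figure D3:**
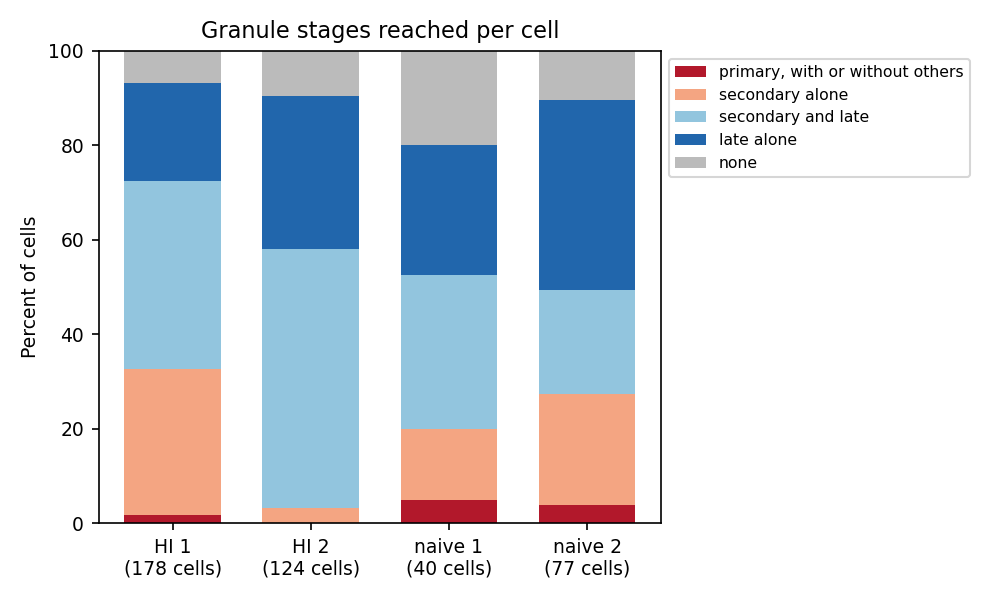
Percent of cells with at least 20 S100a9 UMIs (y axis) in each granule stage, as stacked bars by library (x axis), where a stage counts as reached at 3 of 3000 drawn UMIs. Secondary-only cells fill 55 of 178 cells in HI 1 and 4 of 124 in HI 2, and primary mRNA appears in 0 to 3 cells of a library.

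Outside the 10 genes, each stage had close companions, found as the genes with the highest correlation across the 419 cells among 5154 considered. For the primary sum this was Ms4a3, a marker of granulocyte-monocyte progenitors, at 0.73, followed by Rpia at 0.53, an enzyme of the pentose phosphate pathway. For the secondary sum it was Chil3 at 0.81, then Serpinb1a at 0.77, an inhibitor of elastase and cathepsin G, and Lcn2 at 0.77, which sequesters siderophores. For Retnlg it was Mmp9 at 0.71, the gelatinase of tertiary granules, then S100a11 at 0.69 and the collagenase Mmp8 at 0.67. The secondary sum and Retnlg themselves correlated at -0.17. Chil3 and Mmp9 were also among the genes of the axis.

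Secondary and late granule mRNA hardly appeared outside the gate. In each library at least 99.8% of the Camp, Ngp, Ltf and Retnlg UMIs lay in gate cells. The shares of S100a9 (at least 99.8%) and S100a8 (98.6% to 99.8%) follow from the gate, since both genes chose its cells. Other types were named from their markers, at least 3 of them. Cells like border-associated macrophages, the resident macrophages of the meninges, were 15100 of the 20725 kept cells (2968 and 4544 cells in HI 1 and HI 2, 3412 and 4176 in naive 1 and naive 2). Summed over the libraries, these most numerous cells held most of the rest of Camp, Ngp, Ltf, Retnlg and S100a9, though not for every gene in each library. They had 35 and 2 Camp UMIs in HI and 3 and 9 in naive, and 206 and 72 S100a9 UMIs in HI and 13 and 60 in naive. Each of Camp, Ngp, Ltf and Retnlg was there at 0.429 to 3.04 times the amount that the gate's own ratio to S100a9 in the same library gives. Lymphoid cells, which do not express these genes, had 3 and 2 S100a9 UMIs in B lineage cells of HI 1 and HI 2 and 0 in both naive libraries. The source of these UMIs was not tested.

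Prtn3 was the exception. Macrophage-like cells held 86 and 144 Prtn3 UMIs in HI 1 and HI 2 and 67 and 58 in naive 1 and naive 2, 212 to 504 times what the gate's ratio to S100a9 gives. They were spread over 81 and 124 HI cells and 61 and 55 naive cells, of which 5 and 7 HI cells and 4 and 3 naive cells held more than 1 UMI, with at most 14 in 1 cell of HI 2. S100a9 was also found in 3 and 1 of these HI cells and 0 and 1 of these naive cells, and Elane, Mpo and Ctsg summed to 0 and 4 UMIs in HI and 0 and 2 in naive. Ctsg, in turn, was found in cells with basophil and mast cell markers, which are known to make it: 13 and 21 UMIs in 2 and 8 cells of HI 1 and HI 2 and 14 and 11 in 19 cells of each naive library.

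Monocyte-like cells below the gate held S100a8 nearly without S100a9. Non-classical monocyte-like cells below the gate had 162 and 491 S100a8 UMIs in HI 1 and HI 2 and 167 and 359 in naive 1 and naive 2, against 4 and 2 of S100a9 in HI and 1 and 7 in naive. Over the 4 libraries S100a9 was 1.17% of the S100a8 and S100a9 UMIs there (exact binomial interval 0.643% to 1.96%, counting error only) and 1.31% in classical monocyte-like cells, against 52.1% in the 419 cells. In macrophage-like cells it was 59.2%. Microglia-like cells had 32 and 27 S100a8 UMIs in HI and 32 and 52 in naive, and 36 and 20 of S100a9 in HI and 1 and 7 in naive. Cells at or above 20 UMIs of the pair were left out of all these types, which caps the S100a8 and S100a9 a monocyte could show. The 419 cells were themselves chosen for S100a9. Gate cells led by classical monocyte markers held 17754 S100a8 and 4770 S100a9 UMIs (medians of 118 and 3 a cell). Those led by non-classical monocyte markers held 2989 and 573 (medians of 33 and 0).

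**Figure D4:**
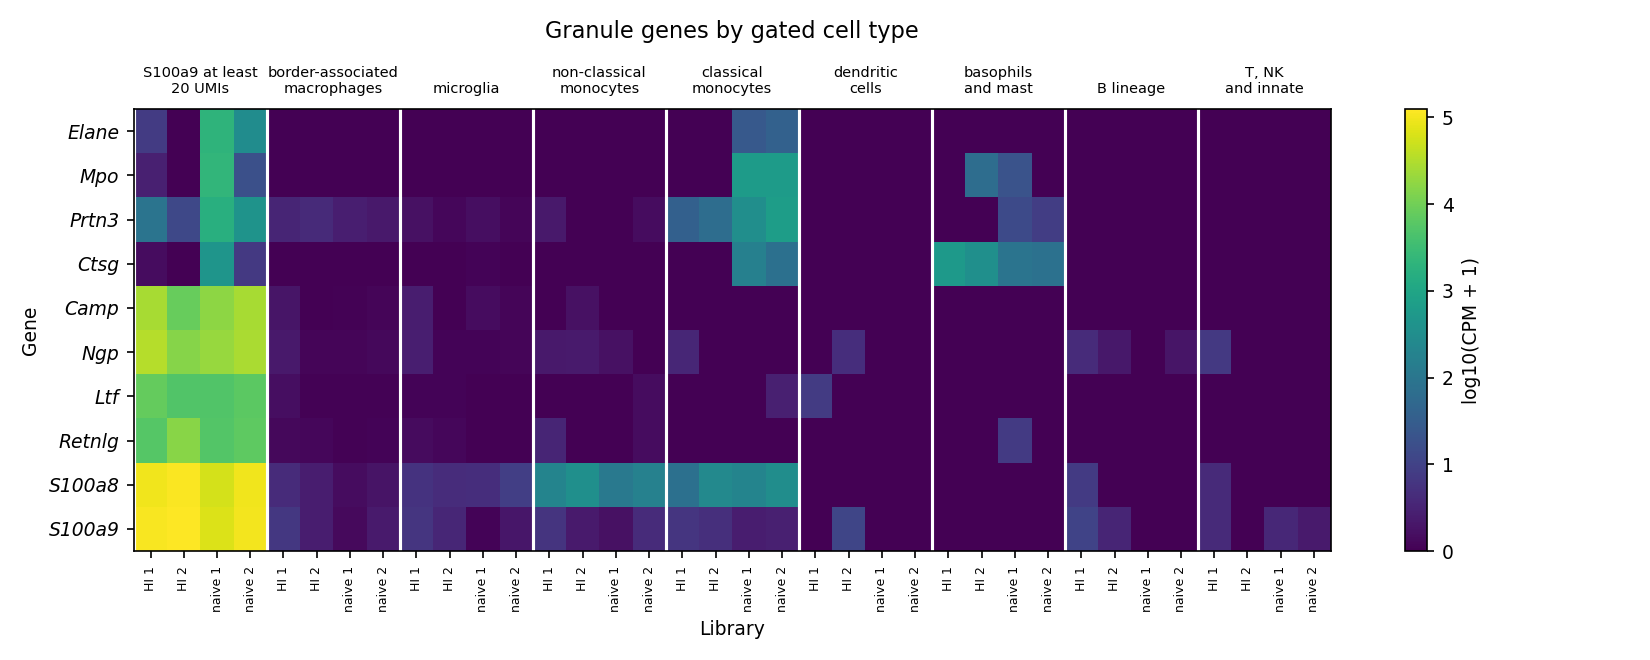
log10 of CPM plus 1 (CPM, UMIs per 1000000 UMIs) (colour) of each gene (rows) in gated cell types (column blocks, 1 column per library, HI left of naive). The block of cells with at least 20 S100a9 UMIs is bright for all secondary and late genes. Monocyte-like cells below the gate carry S100a8 but hardly any S100a9. Prtn3, S100a8 and S100a9 are faint in macrophages. Bright Elane and Mpo in classical monocyte-like cells come from the few cells with primary mRNA.

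Cells over the S100a8/S100a9 threshold were more frequent in both HI libraries than in both naive ones. They were 4.86% of HI 1 (198 cells, exact binomial interval 4.22% to 5.57%) and 3.12% of HI 2 (190 cells, 2.70% to 3.59%), and 1.06% of naive 1 (52 cells, 0.792% to 1.39%) and 1.87% of naive 2 (106 cells, 1.54% to 2.26%). The means were 3.99% ± 1.23 in HI and 1.47% ± 0.575 in naive (SD, n = 2 each), a ratio of 2.73. The exact permutation p, 2-sided, was 0.333, the smallest that 2 libraries against 2 can give. With at least 20 S100a9 UMIs required in each cell, an alternative added after the data were seen, the shares were 3.21% ± 1.65 in HI and 1.09% ± 0.386 in naive (SD, n = 2 each), a ratio of 2.95 with the same exact permutation p of 0.333.

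Within the gate, stage shares did not separate the groups in every library. The secondary sum was reached by 65.2% and 37.9% of gate cells in HI 1 and HI 2 and by 38.5% and 35.8% in naive 1 and naive 2 (HI minus naive 14.4 percentage points, exact permutation p = 0.667). Only HI 1 lay above the naive libraries, and without it the difference was 0.739. Retnlg was reached by 54.5% and 56.8% in HI and 46.2% and 46.2% in naive (9.50 points, exact permutation p = 0.333), and the primary sum by 1.52% and 1.05% in HI and 3.85% and 2.83% in naive (-2.05 points, exact permutation p = 0.333). With at least 20 S100a9 UMIs required, the secondary shares were 72.5% and 58.1% in HI and 50% and 49.4% in naive (exact permutation p = 0.333), and those of Retnlg 60.7% and 87.1% in HI and 60.0% and 63.6% in naive (exact permutation p = 0.667).

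Over whole libraries every secondary and late gene was higher in the mean of HI, with only Retnlg near the threshold. Retnlg stood at 252 and 244 CPM (UMIs per 1000000 UMIs of all genes) in HI 1 and HI 2 and 43.4 and 72.1 in naive 1 and naive 2, with no overlap between groups. Its log2 fold change, HI over naive, was 2.14 (SE 0.24), with an edgeR adjusted p of 0.0504, just over 0.05. S100a8 was at 4508 and 1982 in HI and 493 and 1087 in naive (2.07, SE 0.53, edgeR adjusted p = 0.147), and S100a9 at 4946 and 1969 in HI and 554 and 1124 in naive (2.08, SE 0.54, 0.150). Camp was at 1241 and 127 in HI and 136 and 295 in naive (1.70, SE 1.02, edgeR adjusted p = 0.413), and its HI libraries lay on both sides of the naive ones. Ngp (1.93, edgeR adjusted p = 0.293) and Ltf (1.96, 0.223) also varied widely between the HI libraries. Without HI 1 the log2 fold changes were -0.71 for Camp, 0.05 for Ngp, 0.59 for Ltf, 1.38 for S100a8 and 1.28 for S100a9. Without HI 2, the log2 fold changes were 2.72 for Ngp and 2.65 for Ltf. A fit without 1 library leaves 1 library in a group, so only its effect sizes are given. Elane (-0.77), Mpo (-0.86), Prtn3 (-0.34) and Ctsg (-0.09) did not pass, with edgeR adjusted p from 0.706 to 0.977 over the 4. A library's total combines the share of gate cells, given above, with the level within them, given below. Of 14705 genes tested, 75 (0.51%) passed, 0.381% higher and 0.129% lower in HI, and none of the 10 was among them.

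**Figure D5:**
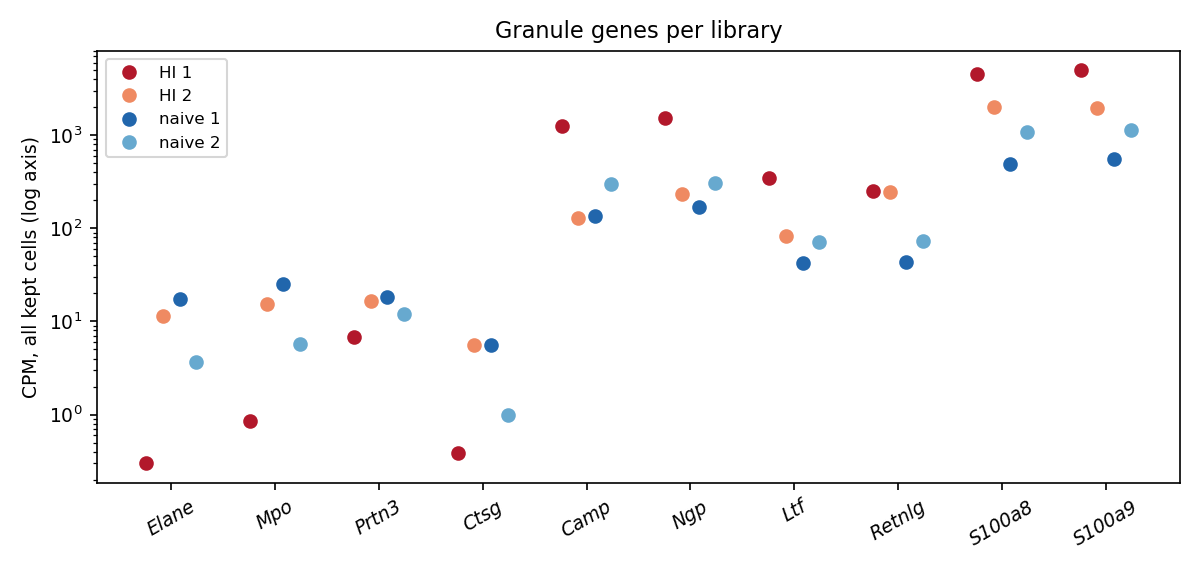
CPM over all kept cells (log axis) of each granule gene in each library. HI 1 and HI 2 lie above both naive libraries for Ltf, Retnlg, S100a8 and S100a9, while HI 2 lies just below both naive libraries for Camp.

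The call of Retnlg over whole libraries was close enough to turn with the setting. It passed with DESeq2 (adjusted p = 5.86e-07), no filter on low counts (edgeR adjusted p = 0.0134), no doublet removal (0.0463), without naive 2 (0.0271) and without HI 2 (0.0415).

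In the summed counts of the gate cells, no gene passed. Of 7115 genes tested with edgeR, 0 passed (0%), with 444 at an unadjusted p under 0.05 and 49 by DESeq2. The mix of gate cells differed between groups. Neutrophil markers led in 153 of 198 and 112 of 190 gate cells of HI 1 and HI 2. They led in 26 of 52 and 56 of 106 in naive 1 and naive 2. In these sums the mix and the level within neutrophils cannot be told apart. Retnlg had 5146 and 10045 CPM in HI 1 and HI 2 and 4233 and 5003 in naive 1 and naive 2, a log2 fold change of 0.96 (SE 0.32) with an edgeR adjusted p of 0.628. Camp (0.18), Ngp (0.43) and Ltf (0.51) also had positive values with edgeR adjusted p from 0.955 to 0.999. Camp was at 25312 and 5253 in HI and 13301 and 20510 in naive, and without HI 1 its sign turned (-1.53). Ngp (-0.78) and Ltf (-0.25) also turned without HI 1. The 4 primary genes had negative values, from -1.45 for Ctsg to -2.30 for Elane (SE 1.49), which rest on few cells in each library: Elane was at 6.17 and 322 CPM in HI and 1657 and 229 in naive. S100a8 and S100a9 are not tested here, since they chose the cells.

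Other granule genes, counted by the fixed lists, followed. In the gate none of the lists had a gene that passed: 9 of 10 further primary genes were tested, 16 of 16 secondary and tertiary, 18 of 18 late and secretory, 5 of 10 regulators and 5 of 6 protease inhibitors. Their median log2 fold changes were -0.42, 0.98, 1.06, 0.33 and -0.10, against -0.0042 for all genes. Here too, the mix of gate cells and the level within neutrophils cannot be told apart. The most abundant of each list were Lyz2 (lysozyme, -0.42) and Srgn (the granule proteoglycan, 1.09), Lcn2 (1.24) and Chil3 (1.05), Stfa1 (0.53) and BC100530 (0.83), which belong to a family of near-identical stefins whose reads could be split, Spi1 (PU.1, 0.33) and Cebpe (a regulator of secondary granules, -0.30), and Slpi (a leukocyte protease inhibitor, -0.29). None passed with edgeR (adjusted p from 0.322 to 0.999). Over whole libraries 4 of the 16 secondary and tertiary genes rose in HI and 0 fell, where 0.381% of all genes tested were higher and 0.129% lower: Lrg1 by 4.09, Mmp8 by 2.52, Olfm4 by 2.54 and Adam8 by 1.57 on the log2 scale (edgeR adjusted p = 0.000328, 0.00353, 0.0144 and 0.0144). Of the 18 late genes Il1r2 rose by 3.30 (edgeR adjusted p = 0.0147) and none fell, and these 5 were named after their values were seen. No gene of the other 3 lists passed.

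In other cell types the values of S100a8 and S100a9 are descriptions, since cells with 20 or more UMIs of the pair had been left out. S100a8 in non-classical monocyte-like cells was at 197 and 340 CPM in HI 1 and HI 2 and 112 and 169 in naive 1 and naive 2, with no overlap, a log2 fold change of 0.93, or 0.42 without HI 2. With the cells of 20 or more UMIs kept in it was 2.32. Of the 7900 genes tested there, 1.91% passed (0.899% higher and 1.01% lower in HI). In macrophage-like cells the log2 fold change was 1.81 for S100a8 and 2.10 for S100a9 (0.89 without HI 1), and both turned with the cells of 20 or more UMIs kept in (-1.55 and -1.19). In microglia-like cells it was -0.48 for S100a8 and 2.82 for S100a9, and there 0.699% of 10874 genes passed (0.331% higher and 0.368% lower in HI).

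Prtn3 and Ngp could be tested in macrophage-like cells, where 4.49% of 13276 genes passed (2.46% higher and 2.03% lower in HI). Prtn3 was at 2.43 and 3.03 CPM in HI 1 and HI 2 and 1.67 and 1.28 in naive 1 and naive 2, with no overlap. Its log2 fold change of 0.92 (SE 0.23) did not pass (edgeR adjusted p = 0.0707), and it was 1.08 without HI 1. Ngp had 1.61 (edgeR adjusted p = 0.301), with -0.18 without HI 1 and 2.47 without HI 2. The share of macrophage-like cells with any S100a8 or S100a9 UMI, after drawing 3000 UMIs per cell, was 2.59% and 1.01% in HI and 0.264% and 0.766% in naive, the same order as the libraries' numbers of gate cells. Whether these counts are RNA from gate cells was not tested.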

How the data were processed

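UMI counts per gene and barcode were deposited by the authors, made with Cell Ranger 2.2.0 and builds mm10 and GRCm38, per the submitters' processing notes, which also name Seurat. Totals were 51986763 to 68543046 UMIs per library. A barcode was used when it had 200 genes or more and no more than 10% of its UMIs from mitochondrial genes. Scrublet called only 1 to 3 doublets per library by its own threshold, so the barcodes with the highest scores were removed instead, at 0.8% per 1000 barcodes (142 to 329 per library, 4 to 15 of them gate cells). A cell took the type of the list with the highest share of markers found, with at least 3 markers and a lead of 0.2 over the next of 11 lists. The list of granulocyte-monocyte progenitor markers was not among them. For shares, each cell was thinned to 3000 UMIs. Counts summed per library were tested with edgeR 4.0.16 (filterByExpr, TMM, quasi-likelihood test, Benjamini-Hochberg over all genes, threshold 0.05), with DESeq2 1.42.0 as an alternative, in R 4.3.3. Only edgeR was also run on simulated counts. Single values were compared by exact permutation over libraries. Python 3.11.15, scanpy 1.11.5 and scipy 1.17.1 were used. All 10 genes are named, and other granule genes are counted by list and named when past the threshold in the gate, otherwise the 2 most abundant there. The genes and lists were chosen with earlier results of these data known. Binomial intervals (95%) cover counting error only. The series' design text gives 2 runs with 1 HI and 1 naive pool in each. The labels number the pools but do not tie a number to a run, so a run effect could not be fitted, and the replicate number was used as a block in an alternative only. The receptor libraries were not used here.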

Additional observations from a re-analysis of the deposited data

Results flagged for a closer look

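Prtn3 differed in opposite directions between HI and naive in cells with at least 20 S100a9 UMIs, a cut made after the values were seen, and in macrophage-like cells. In the cells with at least 20 S100a9 UMIs it was at 89.3 and 12.0 CPM (UMIs per 1000000 UMIs) in HI 1 and HI 2 and 1657 and 419 in naive 1 and naive 2, so both HI libraries lay below both naive ones. In macrophage-like cells it was at 2.43 and 3.03 in HI and 1.67 and 1.28 in naive, so both lay above. The difference between the log2 ratios of the group means (plus 1 CPM) was -4.92, and this difference was not tested. The first set of values rests on few cells: 1 cell held 70.4% and 71.1% of the Prtn3 UMIs in naive 1 and naive 2. In the whole S100a8/S100a9 gate the groups overlapped, with 83.5 and 382 CPM in HI and 1317 and 327 in naive: 1 cell of HI 2 with 19 S100a9 UMIs held 544 of the 588 Prtn3 UMIs of that library's gate. The 2 cells that held most Prtn3 in naive 1 and the 1 that did in naive 2 were of no single type by their markers. The progenitor list could not name a type, and each of these cells held 3 of its markers.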

How the results depend on the processing

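The share of gate cells stayed higher in HI under every alternative run (difference 1.66 to 3.40 percentage points without 1 library), as did the late share of the gate (8.36 to 10.7). The secondary share ranged from 0.739 without HI 1 to 28.0 without HI 2, and the primary share from -2.56 to -1.55. The counts of genes passing moved widely. In the gate, 0 became 49 with DESeq2, 238 with no filter on low counts, 15 with no doublet removal, 267 without HI 1 and 157 without HI 2, and stayed 0 without either naive library. Over whole libraries, 75 became 755 with DESeq2, 257 with no filter, and 2 to 265 without 1 library (2 without naive 1, 3 without naive 2, 129 without HI 1, 265 without HI 2). In macrophage-like cells, 596 became 1681 with no filter and 92 to 1159 without 1 library (92 without naive 1, 212 without naive 2, 1159 without HI 2). In microglia-like cells, 76 became 121 with DESeq2, 741 with no filter, and 9 to 1266 without 1 library (9 without either naive library, 437 without HI 1, 1266 without HI 2). In non-classical monocyte-like cells, 151 became 47 with DESeq2, 92 with no doublet removal, and 104 to 232 without 1 library (232 without HI 1). The HI minus naive share of macrophage-like cells with an S100a8 or S100a9 UMI, 1.29 points, was 4.93 with no thinning and 0.497 to 2.08 without 1 library. The causes were not tested.

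With the replicate number as a block, the counts were 0 in the gate, 162 over whole libraries, 1482 in macrophage-like cells, 840 in microglia-like cells and 363 in non-classical monocyte-like cells. Libraries of the same number did not deviate together beyond a correlation of -0.08 to 0.21, and the labels do not pair them. Under the block Camp in the gate was -0.25, and Retnlg over whole libraries passed (edgeR adjusted p = 0.0489). The log2 fold changes of S100a8 in macrophage-like cells (1.75) and S100a9 in microglia-like cells (2.83) are descriptions, since both genes had set which cells were left out.

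Directions turned for some genes. Camp in the gate (0.18) was -0.10 without cells of another type and -0.011 with at least 20 S100a9 UMIs per cell. Keeping cells of 20 or more UMIs of the pair among macrophage-like cells gave -1.55 for S100a8 and -1.19 for S100a9. Without 1 library, log2 fold changes in the gate ranged from -1.53 to 0.92 for Camp, -0.78 to 1.07 for Ngp, -0.25 to 1.00 for Ltf, -8.60 to 3.78 for Mpo and -8.04 to 3.68 for Ctsg. Over whole libraries they ranged from -0.71 to 2.56 for Camp, -5.06 to 0.73 for Elane, -4.14 to 0.55 for Mpo, -1.13 to 0.17 for Prtn3 and -3.06 to 1.62 for Ctsg. Ngp in macrophage-like cells ranged from -0.18 to 2.47 and S100a8 in microglia-like cells from -0.97 to 0.13.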
